A study of Mus musculus with 4 samples.

Results

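The genes for 3 colony-stimulating factors (Csf1, Csf2 and Csf3), 2 interleukins (Il6 and Il1b), interferon beta (Ifnb1) and the inducible nitric oxide synthase (Nos2) were examined in 4 lines of L1210, a mouse lymphocytic leukemia cell line. These 7 genes, of 24561 gene symbols in the deposited table, were chosen by their names, after some of them had been seen to be low in the variant lines of these same arrays. Their values against L1210-control are therefore a description with no test. They were measured by 9 of the 55681 oligos on the array, on 38 spots per array, and all of these spots are shown, while those with an outlier flag were left out of means and ratios.

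All 4 lines derive from L1210 cells of DBA subline 212, and all carry a stable transfection made with lentivirus and were sorted for GFP. L1210-control has the stable transfection that the labels call control, with no further detail on its insert. L1210-Fbxw11a carries the full-length Fbxw11 transcript, L1210-Fbxw11c the transcript without the second exon, and L1210-Fbxw11d the transcript without the second and the third exon. Whether a line is 1 clone or a sorted pool is not given in the sources used here. Cy3-labelled RNA of each line went onto 1 Agilent 1-colour array, and without a further array per line no difference between lines could be checked against replicates. The 3 lines with a variant are named below by its transcript, as the Fbxw11a, Fbxw11c and Fbxw11d lines. The study's threshold of a 2-fold difference was kept.

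Colony-stimulating factors are secreted proteins that keep myeloid progenitors alive and direct their maturation, Csf1 towards macrophages, Csf2 towards granulocytes and macrophages, and Csf3 towards neutrophils. Il6 and Il1b encode inflammatory cytokines, Ifnb1 encodes a type I interferon, and Nos2 encodes the enzyme that makes nitric oxide in activated macrophages. Transcription of several of these genes is known to depend on NF-κB, a factor held in the cytoplasm by IκB proteins, and Fbxw11 (also called β-TrCP2) is a subunit of the ubiquitin ligase that recognises phosphorylated IκB.

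Each gene was read through a single 60-base oligo, except Csf1, which had 3. The last 30 bases of each oligo, towards its 3′ end, are shown to identify the oligos on which the measurement rests. All letters are in lower case, since no part of them was singled out.
Csf1 oligo 1: actatttccatgctagaaaatacatatttt
Csf1 oligo 2: cttgtagtctattaaaaaccccagttctat
Csf1 oligo 3: agctgcatcatatattgtcatatgttgagc
Csf2: gcaagacaaacgagagatattttctactga
Csf3: aacagcagtgttcccaaactgggttcttat
Il6: gtataagtttacctcaatgaattgctaatt
Il1b: tgaatgaagcaccagcacattgctttgatg
Ifnb1: gtagtgaatctactgcatttgaaaggtcaa
Nos2: actatgtacagatatttatacttcatattt

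The deposited table places these oligos on the mouse build mm9. For Csf1 they lie at chr3:107544333-107544392, chr3:107548521-107548580 and chr3:107548550-107548609 on the minus strand. Oligos 2 and 3 share 31 bases and are not independent readings. The Csf2 oligo is placed at chr11:54060772-54060799, which covers 28 of its 60 bases. The Csf3 oligo lies at chr11:98564614-98564673, the Il6 oligo at chr5:30346367-30346426 and the Il1b oligo at chr2:129190347-129190406. Those of Ifnb1 and Nos2 lie at chr4:88168023-88168082 and chr11:78773567-78773626. The share of G and C bases in the oligos ran from 35% to 45%. Csf1 oligo 1 and the oligos of Csf2 and Il1b were printed on 10 spots per array, those of Il6 and Nos2 on 2 spots, and the others on 1 spot.

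Signals below are linear intensities, background-corrected by the scanner software and brought to the scale of the L1210-control array through the 75th percentile of each array. A spot is well above background where the scanner software flags it so, and an oligo counted as measured where at least 0.5 of its usable spots were. Oligos counted as measured made up 62.5% of all oligos on L1210-control, 66.0% in the Fbxw11a line, 64.3% in the Fbxw11c line and 68.7% in the Fbxw11d line. On an array where an oligo was not measured, its ratio is a bound against the higher of its own signal and the lowest signal of any oligo with all spots well above background, which was 18.1, 14.4, 14.9 and 10.4, given as before for L1210-control first. The arrays of L1210-control and of the Fbxw11a and Fbxw11c lines shared slide 1, and the Fbxw11d line was alone on slide 2, so for that line slide and variant cannot be told apart. E1A spike-in RNAs, meant to be added in equal amounts, were compared with L1210-control in the Fbxw11a, Fbxw11c and Fbxw11d lines. After scaling they differed by 0.13, 0.16 and -0.58 on the log2 scale, and before scaling by 0.14, 0.27 and 0.04. The 75th percentile was 621.3 on L1210-control and 952.3 in the Fbxw11d line, so the -0.58 arose with the scaling. The 2 oligos of Fbxw11 itself differed from L1210-control by 0.03 to 0.31 on the log2 scale, so the array gave no 2-fold check of the labels. The paper reports that western blotting and real-time RT-PCR verified high levels of the variants. Markers were read for the cell type. Of 12 B lineage markers, 7 were measured on each array, with Blnk the brightest at 18268 on L1210-control, and Ebf1, Rag1, Rag2, Igll1 and Cd79b were not on any. Of 12 T lineage markers, 7 to 9 were measured, with Cd4 at 3020 and Cd3e at 1293 on L1210-control and Cd3d, Cd3g and Thy1 on no array. Of 12 macrophage and monocyte markers, 8 were measured on each array, among them Cd68, Cd14, Itgam and Csf1r, while Lyz2, Msr1, Fcgr1 and Clec7a were on none. Each of the 3 lists was thus measured in part in these lines. Ptprc, the 1 general leukocyte marker read, was dim but measured on each array. It gave 42.9 on L1210-control and 36.1, 29.8 and 32.0 in the Fbxw11a, Fbxw11c and Fbxw11d lines.

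Of the 38 member spots, 28 were well above background on L1210-control, 17 in the Fbxw11a line, 24 in the Fbxw11c line and 26 in the Fbxw11d line. The remaining 10, 21, 14 and 12 spots were not. In the same order, 1, 1, 3 and 1 member spots carried an outlier flag and were left out, and none was saturated. The array of L1210-control thus held the most member spots well above background and that of the Fbxw11a line the fewest. Most of the difference between these arrays came from the 1 oligo of Csf2, with 10 such spots on L1210-control and 2 in the Fbxw11a line. In bulk RNA, fewer expressing cells and less RNA per cell cannot be told apart for any of these genes.

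**Figure D1:**
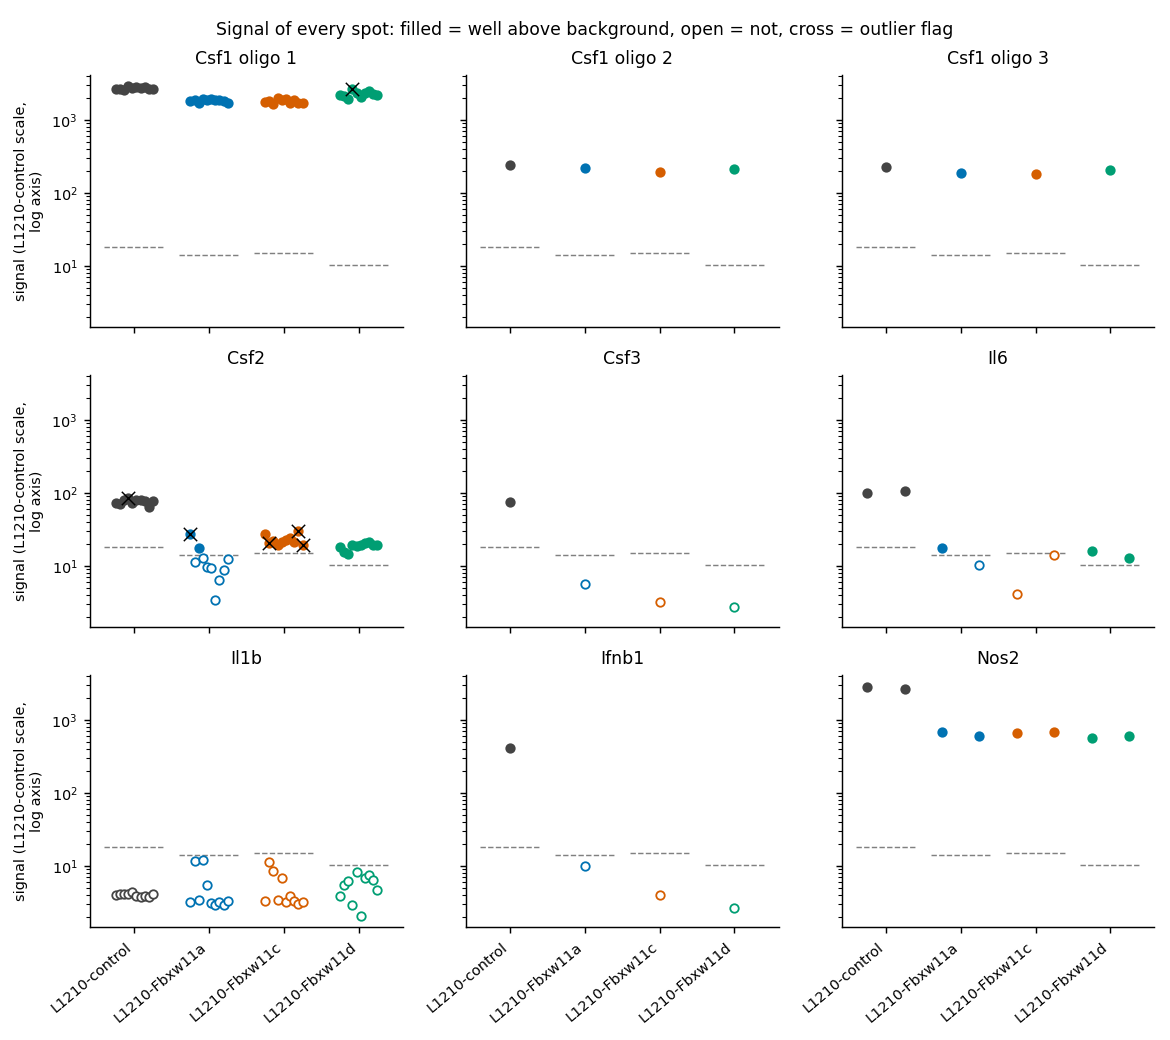
Signal of every member spot (log axis, L1210-control scale) on the 4 arrays, 1 panel per oligo; filled points are well above background, open points are not, crosses mark outlier flags and dashed lines the lowest signal of oligos with all spots well above background. Csf2, Csf3, Il6, Ifnb1 and Nos2 are highest on L1210-control, and all Il1b points are open.

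Csf1, the factor for macrophage growth, was measured in every line. All 10 spots of oligo 1 were well above background on all 4 arrays. On L1210-control they gave 2597 at the lowest, 2681 at the median and 2905 at the highest. In the Fbxw11a line the corresponding signals were 1702, 1868 and 1949, and in the Fbxw11c line 1628, 1776 and 1972. In the Fbxw11d line they were 1909, 2239 and 2626, the highest of these from the spot with an outlier flag. The spots of L1210-control did not overlap with those of the Fbxw11a or the Fbxw11c line, but did with the flagged spot of the Fbxw11d line alone. The log2 ratios to L1210-control were -0.56 ± 0.03 (SE between spots) in the Fbxw11a line, -0.60 ± 0.03 in the Fbxw11c line and -0.29 ± 0.04 in the Fbxw11d line, and the last became 0.29 with centring on the spike-in RNAs. None reached 2-fold. These errors are those of printing and scanning, and say nothing of the spread between cultures, sorts or RNA extractions.

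The other oligos of Csf1, on 1 spot each, were well above background on all 4 arrays. Oligo 2 read 242.1 ± 24.5 (scanner error) on L1210-control, 222.3 ± 22.4 in the Fbxw11a line, 194.0 ± 19.6 in the Fbxw11c line and 216.0 ± 21.7 in the Fbxw11d line. Oligo 3 read 228.2 ± 23.1, 189.7 ± 19.2, 182.7 ± 18.5 and 208.5 ± 21.0 on the same arrays. Both were highest on L1210-control, by log2 ratios between -0.12 and -0.32. In the Fbxw11d line these turned to 0.42 and 0.45 with spike-in centring and to 0.05 and 0.08 with median centring. The ratio of 2 single spots of equal brightness has an SD of 0.18 to 0.23 on the log2 scale between signals of 64 and 256. None of the above differences is as large as 2 such SDs. With spike-in centring oligos 2 and 3 gave -0.48 each in the Fbxw11c line, past 2 SDs of 0.18. Oligo 3 gave -0.39 in the Fbxw11a line, past 2 SDs of 0.19.

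Csf2, the factor for granulocytes and macrophages, was dim. On L1210-control all 10 spots were well above background, at 64.8 at the lowest, 77.2 at the median and 84.8 at the highest. In the Fbxw11a line 2 of 10 spots were well above background, 1 of them with an outlier flag, and the spots ran from 3.46 over a median of 10.6 to 27.8. In the Fbxw11c line all 10 spots were well above background, between 19.2 and 29.9 with a median of 21.8, and 3 carried an outlier flag. In the Fbxw11d line all 10 were, between 14.6 and 21.5 with a median of 19.3. No spot of a variant line reached the lowest spot of L1210-control. Csf2 was thus at least 5.20-fold lower in the Fbxw11a line, 3.31-fold lower in the Fbxw11c line (log2 ratio -1.73 ± 0.07, SE between spots) and 4.04-fold lower in the Fbxw11d line (-2.01 ± 0.06). With normexp background correction, which adds an offset of 50 to every signal, the log2 ratio in the Fbxw11a line was at most -0.90. That bound does not reach 2-fold. The log2 ratio was -0.77 in the Fbxw11c line, under 2-fold, and -1.14 in the Fbxw11d line. Against the Fbxw11a line, Csf2 was at least 1.57-fold higher in the Fbxw11c line and at least 1.29-fold higher in the Fbxw11d line. Both bounds are under 2-fold, and the Fbxw11d line was on another slide. With normexp the value of the Fbxw11d line lies below the bound of the Fbxw11a line, so their order is then not shown.

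Csf3, the factor for neutrophils, was read by 1 spot per array. It was well above background only on L1210-control, at 76.3 ± 8.54 (scanner error). The spot was not well above background in the Fbxw11a line, at 5.76, in the Fbxw11c line, at 3.25, or in the Fbxw11d line, at 2.78. Its level was at least 5.31-fold lower in the Fbxw11a line, at least 5.13-fold lower in the Fbxw11c line and at least 7.31-fold lower in the Fbxw11d line than in L1210-control. With normexp the log2 ratios were at most -0.94, -1.02 and -1.52, and the first of these bounds does not reach 2-fold.

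Il6, a cytokine of the acute inflammatory response, had 2 spots per array. Both were well above background on L1210-control, at 101.3 and 106.3. In the Fbxw11a line 1 of the 2 was, at 17.6, and the other, at 10.5, was not. In the Fbxw11c line neither was, at 4.18 and 14.1, and in the Fbxw11d line both were, at 12.8 and 16.3. All 6 spots of the variant lines lay below both spots of L1210-control. The level was at least 6.97-fold lower in the Fbxw11c line and 7.20-fold lower in the Fbxw11d line (log2 ratio -2.85 ± 0.18, SE between spots). In the Fbxw11a line the log2 ratio was -2.93 ± 0.38, but its mean of 13.6 rests on 1 measured spot and lies below the 14.4 used for bounds on that array. It is a bound, at most -2.85, where every spot has to be well above background, and at most -2.91 in the authors' normalized values. With normexp the log2 ratios shrank to -1.11 in the Fbxw11a line, at most -1.30 in the Fbxw11c line and -1.56 in the Fbxw11d line. No order among the 3 variant lines was measurable for Il6.

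Il1b, whose product is cut to its active form by caspase-1, was not measured in any line. None of its 10 spots was well above background on any array. The spots ran from 3.76 to 4.41 on L1210-control, from 2.97 to 12.0 in the Fbxw11a line, from 3.05 to 11.5 in the Fbxw11c line and from 2.08 to 8.33 in the Fbxw11d line. No fold is given for it, and a difference in Il1b was not detectable above background.

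Ifnb1, the interferon beta gene, was read by 1 spot per array. That spot was well above background on L1210-control, at 410.2 ± 39.7 (scanner error). It was not in the Fbxw11a line, at 10.1, in the Fbxw11c line, at 4.04, or in the Fbxw11d line, at 2.71. The level was at least 28.6-fold lower in the Fbxw11a line, at least 27.5-fold lower in the Fbxw11c line and at least 39.3-fold lower in the Fbxw11d line. With normexp the log2 ratios were at most -2.57, -2.70 and -3.20. No other member had so low a bound, and in each comparison 2 oligos of all compared, this one included, were that low.

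The bright Ifnb1 spot was uneven. Its pixels had a mean of 419.5, a median of 375.0 and an SD of 242.5 on a local background of 44.0, so the SD was 57.8% of the mean. Of 4279 spots on the same array with a mean within 1.5-fold of it, 2 had a higher share, and the median share was 15.3%. The scanner software gave the spot no outlier flag. The Csf3 spot on L1210-control had a share of 22.2%, those of Il6 had 23.7% and 28.2%, and those of Nos2 had 11.7% and 12.7%, within the 95th percentile of spots of like brightness. The part of this unevenness in the Ifnb1 value was not tested, and the array holds no further Ifnb1 spot.

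**Figure D2:**
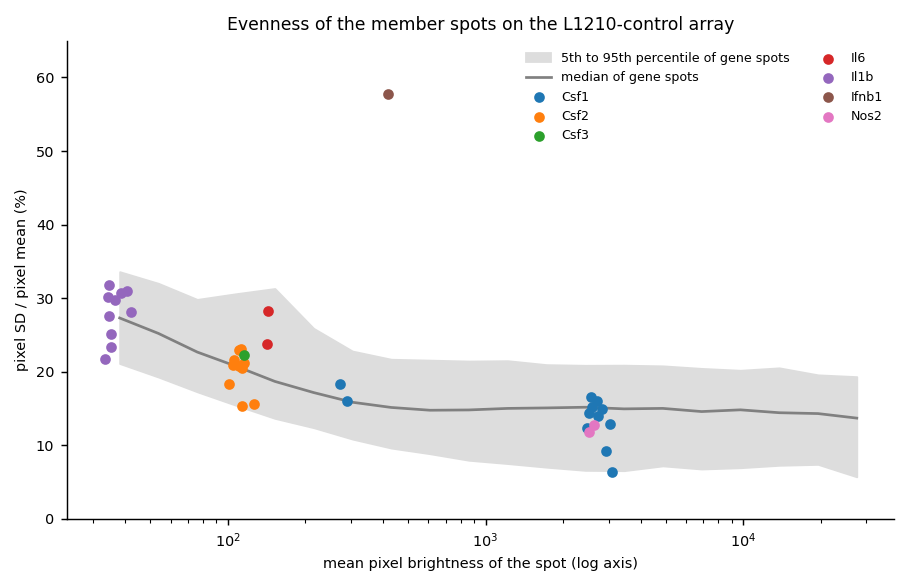
Pixel SD as a percentage of the pixel mean against mean pixel brightness (log axis) for the 38 member spots on L1210-control; the band and line give the 5th to 95th percentile and the median of all gene spots on that array. The Ifnb1 spot, at 57.8%, lies far above the band and the other members lie in or near it.

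Nos2, the inducible nitric oxide synthase, was well above background on both spots of all 4 arrays. On the L1210-control array the spots read 2679 and 2796. They read 602.8 and 677.4 in the Fbxw11a line, 660.9 and 679.5 in the Fbxw11c line, and 563.0 and 599.5 in the Fbxw11d line. Every spot of a variant line was far below both L1210-control spots. The log2 ratios to L1210-control were -2.10 ± 0.09 (SE between spots) in the Fbxw11a line, -2.03 ± 0.04 in the Fbxw11c line and -2.24 ± 0.05 in the Fbxw11d line, or 4.28-fold, 4.08-fold and 4.71-fold lower. Between variant lines Nos2 differed by 0.21 or less on the log2 scale, lowest in the Fbxw11d line. With spike-in centring the log2 ratios were -2.23, -2.19 and -1.66, with the Fbxw11d line highest of the 3, so no order among the variant lines is given.

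In all, 8 of the 9 member oligos could be compared, and in each variant line 5 of the 8 (Csf2, Csf3, Il6, Ifnb1 and Nos2) were lower by 2-fold or more and 0 were higher. Of all oligos compared, 2.42% were lower by 2-fold or more and 2.73% higher in the Fbxw11a line, 2.77% lower and 1.72% higher in the Fbxw11c line, and 5.94% lower and 1.03% higher in the Fbxw11d line. The same 5 were lower in all 3 lines, as were 1.62% of all oligos compared in the 3 lines. L1210-control had the highest signal of the 4 arrays for all 8, and for 22.6% of all measured oligos. Csf3 and Ifnb1 were well above background on L1210-control alone, as were 1.11% of measured oligos, and such oligos enter the comparison only through the array on which they are high. With bounds at their value, the median log2 ratio of the 8 was -2.24, -1.88 and -2.13 in the 3 lines, against 0.00, 0.00 and 0.01 over all oligos with a fold. Since the rule rested on these contrasts, nothing is read from the difference. The 3 comparisons share the single array of L1210-control, so a value particular to that array enters all of them. Several members are genes of activated macrophages, and the 12 macrophage and monocyte markers summed to 14804 on L1210-control and to 12552, 11302 and 12022 in the Fbxw11a, Fbxw11c and Fbxw11d lines. Most of that sum came from Cd68, at 7275 on L1210-control and 5634, 4572 and 5361 in the 3 lines, and from Itgam, at 5119, 4672, 4799 and 4996 on the 4 arrays. The median signal of the 12 was 58.1, 71.6, 43.3 and 82.5 on the 4 arrays, higher than on L1210-control in the Fbxw11a and Fbxw11d lines. The median log2 ratio of the 8 measured was -0.23, -0.43 and -0.12. Cd14 gave log2 ratios of -0.32, -0.60 and -0.39, and Adgre1 gave 0.91, -0.44 and 0.92. Mrc1 gave -0.76, -0.44 and -0.21, Marco gave 0.25, -0.41 and 0.41, and Mpeg1 gave -0.38, -0.42 and 0.12. Csf1r gave -0.01, -0.10 and -1.12, and the last was the 1 ratio of this list past 2-fold. Of 12 fibroblast and stromal markers, 5, 8, 7 and 8 were measured on the 4 arrays, with Pdgfrb, Fap and Postn on none, and they summed to 34325, 34878, 38710 and 33182, of which Fn1 alone made up 33062, 32038, 34519 and 29114. Among them Col1a2, a chain of type I collagen, gave 888.3 on L1210-control and 2419, 3825 and 3702 in the 3 variant lines, with log2 ratios of 1.45, 2.11 and 2.06. Col6a3, a chain of type VI collagen, was not well above background on L1210-control, at 9.57, and gave 51.4, 42.2 and 42.8, with log2 ratios of at least 1.51, 1.22 and 1.24, which with normexp were 0.53, 0.35 and 0.13. These 2 were the stromal markers with a ratio or bound past 2-fold, of 7, 7 and 8 with a ratio, and of all oligos compared in the 3 lines 0.187% passed 2-fold upwards in each. The median log2 ratio of the list was 0.04, 0.38 and 0.29. Of the other collagens, Col1a1 gave log2 ratios of 0.04, 0.38 and 0.48, and Col3a1, not well above background on L1210-control, gave at least 0.69, 0.97 and 0.17. Pdgfra gave log2 ratios of -0.02, -0.55 and -0.70, Dcn -0.29, -0.52 and 0.34, and Fn1 -0.05, 0.06 and -0.18. The part of either marker list in the values of the members was not tested.

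**Figure D3:**
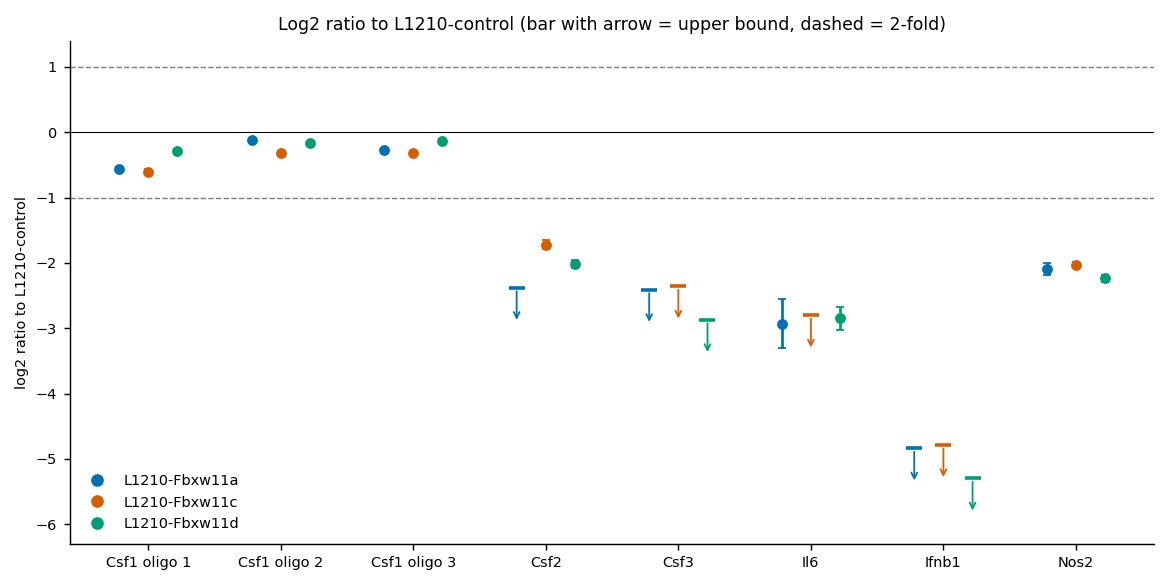
Log2 ratio of each variant line to L1210-control for the 8 compared member oligos; points carry the SE between spots where an oligo had several (the Il6 point of the Fbxw11a line rests on 1 measured spot), bars with arrows are upper bounds, and dashed lines mark 2-fold. The 3 oligos of Csf1 lie between the 2-fold lines, and the other 5 lie below -1.73 or at it.

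The proteins made from these genes act through receptors, and the genes of those receptors were measured beside them. Of 12 receptor genes, 11 were compared, and none differed by 2-fold except the Csf1 receptor Csf1r in the Fbxw11d line. Csf1r read 1104 on L1210-control, 1097 in the Fbxw11a line, 1032 in the Fbxw11c line and 509.3 in the Fbxw11d line. The log2 ratio of Csf1r in the Fbxw11d line, -1.12, was -0.90 with median centring and -0.54 with spike-in centring, which took Il1r1 and Il1rap in that line past 2-fold, to 1.05 and 1.08 from 0.47 and 0.50. Csf3r, the receptor of Csf3, gave 56408, 52966, 59242 and 43448 on the 4 arrays, well above background on each. Il6ra, the receptor chain that binds Il6, gave 3507, 3167, 3080 and 2975, and Il6st, the chain that signals, gave 837.1, 806.2, 850.3 and 952.4. The receptor chains of Csf2 gave 45.7, 29.2, 43.6 and 34.7 for Csf2ra, 126.9, 120.6, 165.6 and 92.7 for Csf2rb, and 74.4, 82.6, 113.9 and 73.6 for Csf2rb2. For Il1b, Il1r1 ran from 175.9 to 243.1 and Il1rap from 185.1 to 272.7, while the decoy receptor Il1r2 was not measured on any array. The interferon receptor chains Ifnar1 and Ifnar2 ran from 554.3 to 607.0 and from 2300.5 to 2717.

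The pathway genes in 6 lists, 81 genes in all, were set beside the members. Of these, 64, 64 and 65 had a ratio in the Fbxw11a, Fbxw11c and Fbxw11d lines, and 0, 1 and 1 were lower by 2-fold and 0, 2 and 0 higher. Over all genes, 2.05%, 2.28% and 4.96% were lower and 2.49%, 1.64% and 1.16% higher. The median log2 ratios of the lists together were -0.07, -0.05 and -0.02, beside 0.01, 0.02 and 0.05 over all genes. No gene of these 6 lists reached 2-fold in all 3 lines. With spike-in centring 6 list genes were higher by 2-fold in the Fbxw11d line, namely Il1r1, Il1rap, Il1rn, Nfatc2, Nlrp3 and Arg1.

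The list of 14 transcription factors that act on the members held no gene at 2-fold. Cebpd, a C/EBP factor of the acute phase response, gave 3874 on L1210-control and 2070, 2321 and 2133 in the Fbxw11a, Fbxw11c and Fbxw11d lines, with log2 ratios of -0.90, -0.74 and -0.86 that kept their sign under every scaling tried, the first being -1.03 with spike-in centring. Relb and Nfkb2, the NF-κB subunits of the alternative pathway, gave log2 ratios of -0.81, -0.70 and -0.35 and of -0.60, -0.63 and -0.36, of which those in the Fbxw11d line became 0.23 and 0.22 with spike-in centring. Rela, the main activating subunit, gave -0.07, -0.09 and -0.24. Nfatc2, a calcium-regulated factor, gave 0.64, 0.69 and 0.73, the last being 1.31 with spike-in centring.

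Among 18 genes of signalling and feedback, Il1rn, which encodes the antagonist of the Il1b receptor, was 2-fold higher in the Fbxw11c line, with 54.2 on L1210-control, 65.6 in the Fbxw11a line, 108.6 in the Fbxw11c line and 86.3 in the Fbxw11d line. With normexp its log2 ratio in the Fbxw11c line was 0.48. With spike-in centring the log2 ratio was 0.85 in the Fbxw11c line, under 2-fold, and 1.25 in the Fbxw11d line, so which line passed 2-fold depended on the scaling. Genes that carry the signal of interferon beta did not differ by 2-fold, with Stat2 between 412.9 and 466.6 and Irf9 between 467.7 and 549.4. Irf7, itself induced by interferon, gave 23.1, 38.0, 31.8 and 22.2. Of 20 other cytokines, 10 had a ratio in each line and none reached 2-fold, though with spike-in centring Osm was at -1.09 in the Fbxw11c line. Tnf gave 29.3, 32.3, 29.4 and 22.2, and Il1a, Il4, Il5, Il12a, Il12b, Il13, Lta, Ltb and Ifng were not measured on any array.

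Casp1, which encodes caspase-1, was the 1 gene lower by 2-fold among 6 of Il1b processing, in the Fbxw11c line only, at 266.5 on L1210-control, 279.6 in the Fbxw11a line, 102.2 in the Fbxw11c line and 187.8 in the Fbxw11d line. Of 11 nitric oxide genes, Arg1, whose product uses the same arginine as Nos2, was at least 2-fold higher in the Fbxw11c line (log2 ratio at least 1.07), from a signal of 6.32 that was not well above background on L1210-control to 38.0. It was also well above background at 26.8 in the Fbxw11a line and 26.3 in the Fbxw11d line, with log2 ratios of at least 0.57 and 0.54. The ratio in the Fbxw11c line was 0.31 with normexp and 0.91 with spike-in centring, which gave 1.12 in the Fbxw11d line. The other nitric oxide synthases stayed under 2-fold, with Nos1 between 68.3 and 111.4 and Nos3 between 799.5 and 882.1.

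**Figure D4:**
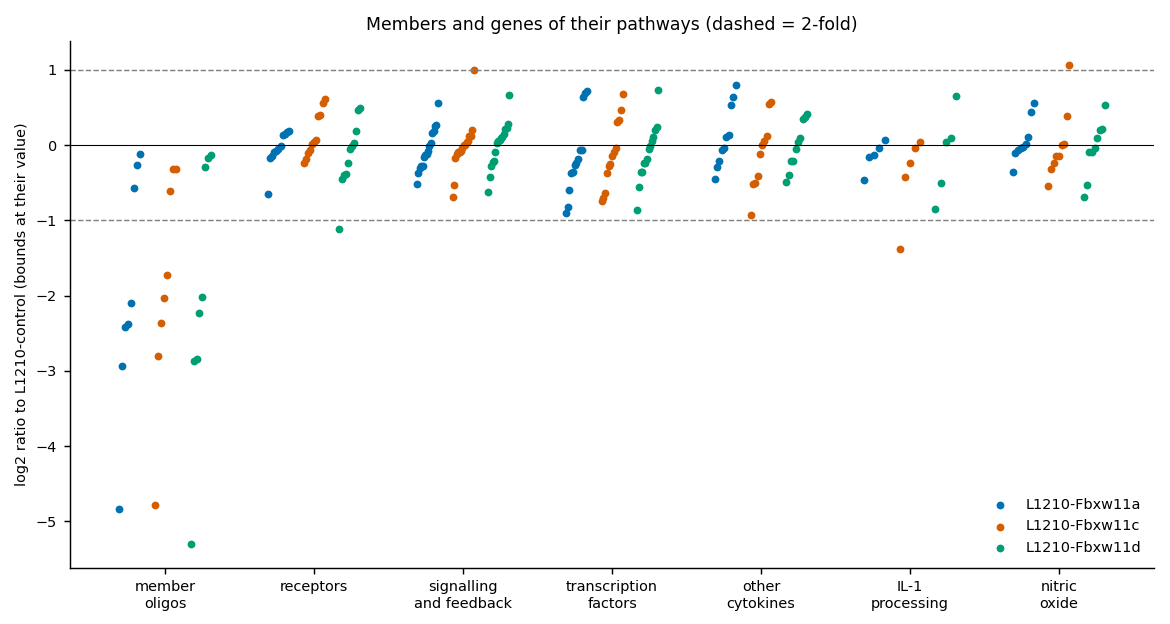
Log2 ratio to L1210-control of the member oligos and of the genes of each pathway list, by line, with bounds drawn at their value and dashed lines at 2-fold. The list genes lie mostly between the 2-fold lines, while 5 member oligos in each line lie below -1.

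The genes whose pattern over the 4 arrays was most like each member were found for the oligos measured on all 4 arrays, among 16251 other gene symbols, by the root mean square difference of the 4 log2 values after centring. For Csf1 oligo 1 they were Axl, Nfkb2 and AI427809, with differences of 0.02, 0.02 and 0.03. For oligo 2 of Csf1 they were Gltpd2, Cd300lg and Fam109b, and for oligo 3 1700027A15Rik, Slc4a9 and Fam110c. For Nos2 they were Fas, 6530409C15Rik and Cdhr3, with 0.10, 0.12 and 0.13. Fas, the death receptor, gave 780.2, 185.8, 226.2 and 172.0. No likeness is given for Csf2 and Il6, each of which was not measured on 1 array. With 4 points a likeness is easily met, and it is a description only.

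The promoters of the members in the RefSeq table of build GRCm38.p6 were searched on both strands for letters of factors known to act on cytokine genes. The table held 5 of the 7 genes, each with 250 bases before the start and 50 after it, and no entry for Csf3 and Nos2. Of the members lower by 2-fold or more it held Csf2, Il6 and Ifnb1, and its others were Csf1 and Il1b. A κB form, GGGANNNTCC, was in 3 of the 5 (Csf1, Ifnb1 and Il6) and in 4.59% of all 32851 promoters. An AP-1 form, TGANTCA, was in 1 (Il6, at -249 to -243 from the start) and in 7.81% of all. The TATA form, TATAAA, was in 2 (Il1b and Ifnb1) and in 13.6% of all. The stretches before the start that carry the κB form follow, each with the matched letters in capitals. On the minus strand of chr4:88522795-88522914 lie the last 120 bases before the start of Ifnb1, with the κB form in forward letters at -116 and in reverse letters at -93 and the TATA form at -82. For Il6 the last 120 bases lie on the plus strand of chr5:30012994-30013113, with overlapping forward and reverse matches to the κB form from -44 to -34. For Csf1 60 bases are shown, on the minus strand of chr3:107760580-107760639, with such an overlapping pair from -155 to -145.
Ifnb1: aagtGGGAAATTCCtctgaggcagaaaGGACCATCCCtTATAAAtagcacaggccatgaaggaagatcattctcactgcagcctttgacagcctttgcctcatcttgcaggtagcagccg
Il6: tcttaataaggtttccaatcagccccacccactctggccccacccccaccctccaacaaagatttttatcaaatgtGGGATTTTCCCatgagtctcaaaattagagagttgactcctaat
Csf1: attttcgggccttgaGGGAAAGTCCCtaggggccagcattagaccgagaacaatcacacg
Csf1, which holds the κB form, did not reach 2-fold, and Csf2, which was lower by 2-fold or more, held none of the 3 forms in its 300 bases. The shares over these 5 promoters thus do not describe the members that were low. Several members were known beforehand to depend on NF-κB, so nothing is read from the share with the κB form. A match is a description and not a site, and the arrays did not measure binding.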

How the data were processed

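Each of 4 L1210 lines was profiled on 1 Agilent 1-colour array. For every array the authors deposited the scanner output, with a background-corrected signal intensity and flags per spot. The file headers name Feature Extraction 10.7.1.1 and the submitters' processing notes name version 9.1. They also deposited 1 table of these intensities with normalized log2 values, symbols and mm9 coordinates, and its normalization method is not given in the sources used here. Here log2 of the processed signal was set relative to the 75th percentile of each array, control and outlier-flagged spots were left out, and spots of an oligo were averaged. Dim oligos gave bounds. With 1 array per line no test was made, and the number of arrays limits the precision. The members and the gene lists were chosen with earlier results of these data known. The rule named all members, their receptors, list genes at 2-fold the same way in all 3 lines (0 of the pathway lists, and Col1a2 and Col6a3 of the marker lists), and the 3 genes most like each member oligo measured on at least 2 arrays, which are not given for Csf2 and Il6. Other list genes were picked after their values were seen. Alternatives were normexp (limma 3.58.1), quantile, median and E1A spike-in scaling, the authors' log2 values, other filters and other fold thresholds. Python 3.11.15 with pandas 2.3.3 and numpy 2.4.6 was used, beside R 4.3.3.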

Additional observations from a re-analysis of the deposited data

How the results depend on the processing

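No paired analysis was possible because each line had 1 array. Of 15 member ratios or bounds past 2-fold, 3 were no longer past it in an alternative, all with normexp, and none changed sign. The 3 were Csf2 in the Fbxw11a and Fbxw11c lines and Csf3 in the Fbxw11a line. Those in the Fbxw11a line are upper bounds and do not show a ratio under 2-fold. The offset of 50 that normexp adds shrinks the ratios of dim oligos. The normexp log2 ratios in the Fbxw11a, Fbxw11c and Fbxw11d lines were at most -0.94, -1.02 and -1.52 for Csf3. For Ifnb1 they were at most -2.57, -2.70 and -3.20. They were -1.11, at most -1.30 and -1.56 for Il6, and -1.97, -1.88 and -2.01 for Nos2. For Csf2 the log2 ratio was at most -0.90 in the Fbxw11a line and was -0.77 in the Fbxw11c line. Median centring gave -0.083, 0.047 and 0.082 for Csf1 oligos 1, 2 and 3 and -2.02 for Nos2 in the Fbxw11d line. Spike-in centring gave -0.69, -0.76 and 0.29 for Csf1 oligo 1, 0.42 and 0.45 for the other Csf1 oligos in the Fbxw11d line, and -2.23, -2.19 and -1.66 for Nos2. It puts the median ratio of oligos measured on both arrays at -0.14, -0.16 and 0.58, and median centring puts that of the Fbxw11d line at 0.21.

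The count of 5 member oligos lower by 2-fold became 3 in the Fbxw11a line and 4 in the Fbxw11c line with normexp. At 1.5-fold it was 6 in the Fbxw11c line. The counts became 2, 2 and 3 when an oligo had to be measured on both arrays. Csf3 and Ifnb1 in every line, Csf2 in the Fbxw11a line and Il6 in the Fbxw11c line then have no ratio. List genes lower by 2-fold (0, 1 and 1 in the 3 lines) became 1, 2 and 0 with spike-in centring, 1, 2 and 2 with no filter, 4, 6 and 5 at 1.5-fold, 0 in each line at 3-fold, and 0 in the Fbxw11d line with median centring. Those higher (0, 2 and 0) became 0, 0 and 6 with spike-in centring, 2, 2 and 2 with no filter, 5, 4 and 3 at 1.5-fold, 0 in each at 3-fold and with normexp, and 1 in the Fbxw11c line when measured on both arrays. Causes of the other shifts were not tested.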
